A study of Mus musculus with 4 samples.

Results

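The genes described here are 36 components of fibroblast growth factor (FGF) signalling: 15 secreted FGF ligands, 3 intracellular FGF homologues, 5 receptors, 1 receptor adaptor, 9 inhibitors that act on the pathway downstream of the receptor, and 3 transcription factors of the Etv family. They were found by name, as all non-control probes whose RefSeq accession belongs to the gene, and they are 36 of 20660 genes named on the array. Expression was measured in the progeny of mouse embryonic stem cells of the EB5 line, into which a reporter had been placed that makes red fluorescent protein (RFP) where Hoxb6, a gene of the trunk Hox group, is active. Differentiation ran for 6 days on feeder cells of the OP9 line, which are stromal cells of mouse bone marrow, and both fractions were sorted as positive for Flk-1, the VEGF receptor encoded by Kdr that marks early mesoderm and its vascular and blood derivatives. One fraction was RFP-positive and the other RFP-negative, with 2 one-colour arrays each. All 4 samples came from the same line and the same day of culture. The labels do not say whether duplicates came from separate cultures, so that p-values measure only the spread between these samples, which may be technical.

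FGF ligands bind receptor tyrosine kinases together with heparan sulphate chains at the cell surface. The activated receptor phosphorylates the docking protein Frs2, which recruits the RAS-ERK cascade. ERK then induces the transcription factors Etv4 and Etv5 and a set of inhibitors, the Sprouty and Spred proteins, the Dusp phosphatases and Il17rd, which restrain the same cascade, so that transcripts of these genes serve as a readout of pathway activity. In the gastrulating embryo FGF signalling is required for mesoderm cells to leave the primitive streak and takes part in the patterning of the trunk and tail.

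Each value is a log2 signal from which the log2 of its array's 75th percentile signal was subtracted, differences are RFP-positive minus RFP-negative, and a gene is called measured on an array where the scanner marked its probe as well above background. Levels of different genes are not compared, because each probe has its own brightness. Per array, between 55.2% and 59.3% of spots were measured and no spot was saturated. RFP-positive replicate 2 stood apart from the other arrays, with correlations of 0.950 to 0.964 against 0.974 to 0.982 among the other 3. Kdr read 4.18 and 4.33 on the RFP-negative and 4.41 and 4.36 on the RFP-positive arrays, while the Hoxb6 probe was measured on none, so that the transcript could not check the reporter labels.

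No FGF gene differed between the fractions past the test's threshold. The 95% interval of the difference lay inside 2-fold either way for 11 of the 29 members tested (37.9%), beside 44.2% of all genes tested. The inhibitors Dusp6 and Il17rd were among these, and the inhibitors Spry2 and Spry4 were not. Of the 36 members, 29 were tested, having been measured on both arrays of at least 1 fraction, against 65% of all named genes, and 28 were measured on all 4 arrays, against 60.1%. The limma fit of all 13422 testable genes, adjusted by Benjamini-Hochberg, called 0 members at an adjusted p of 0.05, and 0% of all genes. At an unadjusted p under 0.05 it held 2 members higher in the RFP-positive fraction, against 2.77% of all genes, and 1 lower, against 3.72%, which is 3 of 29 (10.3%) beside 6.49% in either direction. Of the 2 higher members, Fgf3 passed the filter through the RFP-positive arrays alone, the fraction where its signal was higher. The 10.3% is therefore not read as a result about the members. The counts that follow use the 28 members measured everywhere. Of these, 7 had both RFP-positive arrays above both RFP-negative arrays, beside 19% of all genes measured on all 4 arrays, and 3 had both below, beside 20.4%. In either direction 10 of 28 (35.7%) did not overlap, beside 39.4%. For no member did each RFP-positive array differ by 2-fold or more from each RFP-negative array, beside 0.169% higher and 0.274% lower of those genes. The median difference of the 28 members was −0.037, against −0.041 over all genes measured on all 4 arrays. In sorted populations, fewer cells of a type and less RNA per cell cannot be told apart.

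**Figure D1:**
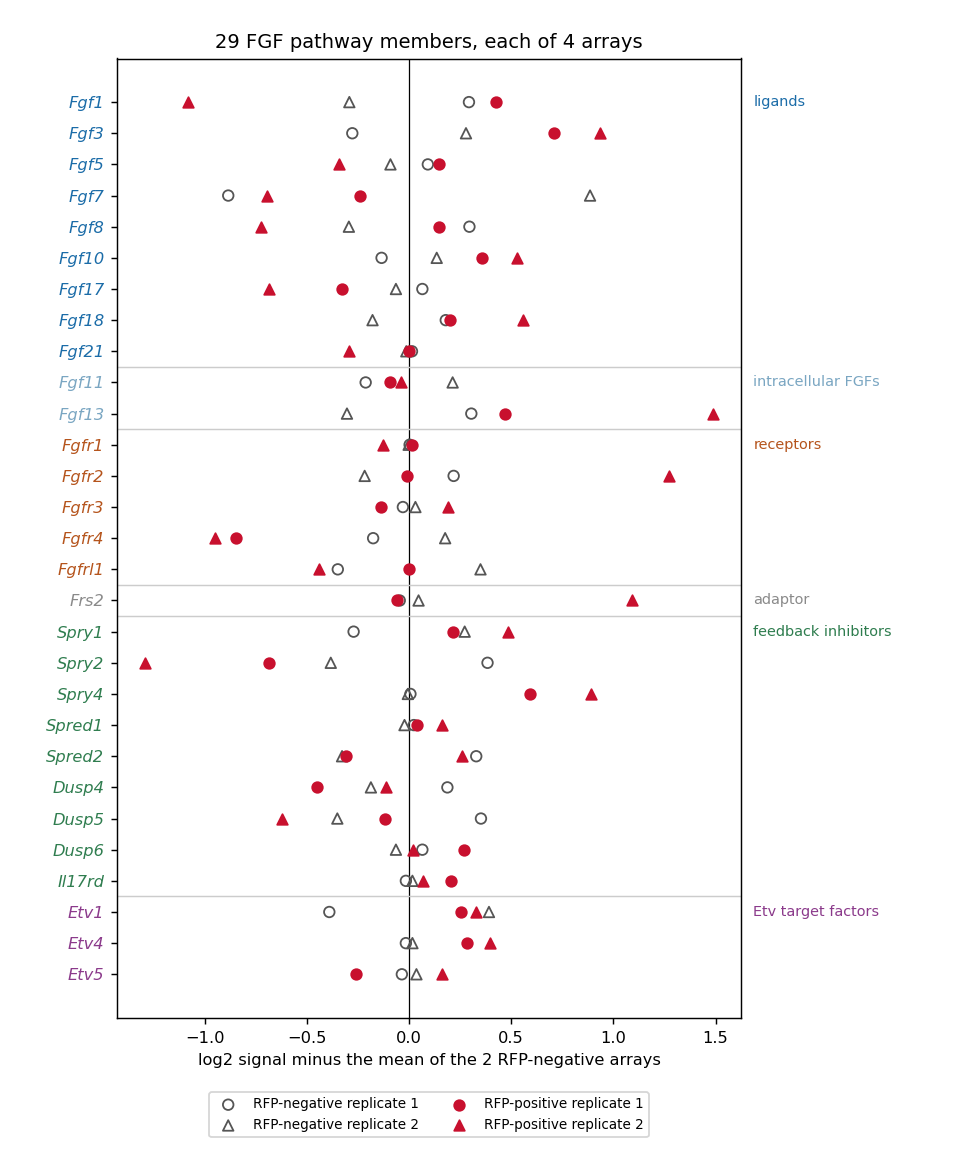
Log2 signal of each of the 29 tested members on each of the 4 arrays, minus the mean of the 2 RFP-negative arrays, in order of the members' roles. Open grey symbols are RFP-negative and filled red symbols RFP-positive arrays, circles replicate 1 and triangles replicate 2. Both red symbols lie right of the grey ones for Fgf3 and Spry4 and left of them for Fgfr4 and Spry2, while the symbols of most other members mix or sit close together.

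The 4 members of smallest p were a ligand, a receptor and a pair of Sprouty inhibitors. Fgfr4, a receptor typical of endoderm and early muscle, read −2.93 and −2.57 on the RFP-negative and −3.60 and −3.70 on the RFP-positive arrays. Both RFP-positive arrays were thus below both RFP-negative ones, with a difference of −0.90 (SE 0.25, 1.87-fold lower, limma adjusted p 0.728). Spry4, an inhibitor of the step from receptor to RAS, lay at −3.35 and −3.37 in RFP-negative and at −2.77 and −2.47 in RFP-positive cells. Its duplicates were close and the fractions did not overlap, with a difference of 0.74 (SE 0.24, 1.67-fold higher, limma adjusted p 0.745). Fgf3, a ligand of the posterior embryo and the otic region, had signals of −3.73 and −3.17 against −2.74 and −2.52. The lowest of these, on RFP-negative replicate 1, was not well above background, and the difference was 0.82 (SE 0.29, 1.77-fold higher, limma adjusted p 0.745). Spry2, an inhibitor of the same family, went the other way from Spry4. It was at 0.82 and 0.055 in the RFP-negative and −0.25 and −0.85 in the RFP-positive fraction, a difference of −0.99 (SE 0.39, 1.98-fold lower, limma adjusted p 0.745). Its duplicates differed by more than those of Spry4, yet did not overlap either. The fractions of these 4 genes did not overlap, so leaving out any 1 array could not turn the sign of a difference. The differences then ran from −1.08 to −0.72 for Fgfr4 and 0.59 to 0.89 for Spry4. Those of Fgf3 ran from 0.54 to 1.099 and those of Spry2 from −1.37 to −0.60, the latter without RFP-negative replicate 1. The signals of Fgf3, Spry4 and Fgfr4 were dim, and with normexp background correction and an offset of 50 their differences were 0.067, 0.13 and −0.39, while that of Spry2 was −0.78. The unadjusted p of Fgfr4 was no longer under 0.05 with normexp (0.074), an eBayes trend (0.098) or a robust trend (0.099) in limma. Those of Fgf3 and Spry4 were not under 0.05 in any of these settings either. That of Spry2, not under 0.05 in the main fit, was under it in each of them.

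As these are the genes of smallest p, the 250 bases before their start sites are shown for the 3 with an entry in the RefSeq promoter table of GRCm38.p6 (Spry4 has none), each 5′ to 3′ on the gene's strand. Capitals mark CCGGAA, the core bound by many Ets family factors including the Etv proteins, searched on both strands.
Fgf3, chr7:144838362-144838611, plus strand: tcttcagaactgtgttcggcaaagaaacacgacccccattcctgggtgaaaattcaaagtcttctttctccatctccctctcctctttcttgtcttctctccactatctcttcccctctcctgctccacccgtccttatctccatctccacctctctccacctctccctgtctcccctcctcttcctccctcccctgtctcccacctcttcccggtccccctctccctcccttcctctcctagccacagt
Fgfr4, chr13:55152568-55152817, plus strand: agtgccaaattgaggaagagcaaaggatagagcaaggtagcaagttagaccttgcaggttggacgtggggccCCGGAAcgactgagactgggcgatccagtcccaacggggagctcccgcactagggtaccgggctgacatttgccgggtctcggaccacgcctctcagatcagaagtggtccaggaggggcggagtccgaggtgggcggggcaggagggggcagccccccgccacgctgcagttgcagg
Spry2, chr14:105896820-105897069, minus strand: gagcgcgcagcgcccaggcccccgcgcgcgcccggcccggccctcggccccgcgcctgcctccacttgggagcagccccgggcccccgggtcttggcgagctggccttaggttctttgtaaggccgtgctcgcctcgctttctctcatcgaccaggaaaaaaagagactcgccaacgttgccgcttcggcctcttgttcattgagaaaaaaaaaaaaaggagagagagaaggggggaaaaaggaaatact
The Fgfr4 window held 1 match, at 178 to 173 bases before the start, and the windows of Fgf3 and Spry2 held none. Matches were found for 5 of the 26 members with an entry (19.2%), namely Fgf5, Fgf12, Fgfr4, Fgfrl1 and Frs2, and for 13.6% of all 27025 genes in the table. The AP-1 letters TGANTCA, searched the same way, occurred for 2 of the 26 members (7.69%), Fgf12 and Fgf13, and for 7.82% of all genes. By base composition the 3 windows differed, with 55.2% G and C in that of Fgf3, 64% in Fgfr4 and 62.4% in Spry2. A match of letters is a description of the window and not a site of binding.

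Of the 15 secreted ligands, 8 were measured on all 4 arrays. Fgf8, the ligand of the primitive streak and tail bud, read 1.04 and 0.45 on RFP-negative and 0.89 and 0.015 on RFP-positive arrays. The fractions overlapped, at a difference of −0.29 (SE 0.41). Fgf5, a ligand of the late epiblast and early mesoderm, was at 2.81 and 2.62 against 2.86 and 2.37. Its difference of −0.098 had a 95% interval from −0.83 to 0.63, inside 2-fold either way. Fgf10, a mesodermal ligand of limb, lung and heart fields, lay above the RFP-negative range on both RFP-positive arrays, at 2.55 and 2.73 against 2.06 and 2.33, but its difference of 0.44 (SE 0.24) did not pass the test. Fgf18, a ligand of skeletal and lung mesenchyme, lay at −0.71 and −0.35 against −0.73 and −1.09. The gap between the fractions was only 0.020, with a difference of 0.38 (SE 0.28). Fgf17, a close relative of Fgf8, was lower on both RFP-positive arrays, at −3.58 and −3.94 against −3.19 and −3.32, a difference of −0.51 (SE 0.25).

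The remaining measured ligands overlapped between the fractions. Fgf1, which activates every FGF receptor, was at −2.34 and −2.93 in RFP-negative cells and at −2.21 and −3.72 in RFP-positive cells. The RFP-positive duplicates were themselves far apart, and the difference of −0.33 (SE 0.57) turned to 0.43 without RFP-positive replicate 2. Fgf7, which mesenchyme secretes to act on epithelium, was highest on RFP-negative replicate 2, at −1.04 against −2.81 on replicate 1, and RFP-positive cells gave −2.16 and −2.62. The Fgf7 difference of −0.47 (SE 0.63) was 0.42 without RFP-negative replicate 2 and −1.36 without replicate 1. On RFP-negative replicate 2 the summed signal of the stromal markers was the highest as well, at 133.7 times the 75th percentile against 90.1 on replicate 1. So were those of adipocyte markers, at 62.1 against 50.8, and of endoderm and epithelium markers, at 49.3 against 28.7. The endothelial, blood, cardiac and pluripotency sums were not highest there. Most of the stromal sum came from Cxcl12, at 6.08 against 5.37, and Col1a2, at 5.02 against 4.17. Vcam1, Thy1, Fap and Igfbp4 were lower on that array than on replicate 1. The part of any of this in the Fgf7 value was not tested. Fgf21, an endocrine ligand made by liver and fat, read −1.89 and −1.92 against −1.90 and −2.20, with a 95% interval of the difference from −0.78 to 0.48. RFP-positive replicate 2 was the lowest and the other 3 arrays were close. With normexp the Fgf21 difference was −0.47, against −0.15 without it, and its unadjusted p was then under 0.05.

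6 ligands were not tested. Fgf2, Fgf9, Fgf16 and Fgf20 were measured on no array. Fgf4, which acts with Fgf8 in the primitive streak, was measured on RFP-negative replicate 2 alone, at −3.61, and Fgf15, an ileal hormone that is also found in embryonic neural tissue, on 1 array of each fraction, at −3.37 on RFP-negative replicate 1 and −3.50 on RFP-positive replicate 2. For Fgf16 the signals ran from −4.54 and −4.15 to −5.83 and −6.07, all not well above background.

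The intracellular FGF homologues are not secreted and bind voltage-gated sodium channels. Fgf13 was higher in the RFP-positive fraction on both arrays, at −2.01 and −0.99 against −2.17 and −2.78. The 2 RFP-positive arrays differed by more than the gap of 0.17 between the fractions, and the difference of 0.98 (SE 0.44, limma adjusted p 0.745) was 0.47 without RFP-positive replicate 2 and 0.26 with normexp. Fgf11 lay at −1.75 and −1.33 in RFP-negative and −1.63 and −1.58 in RFP-positive cells, which overlapped. Fgf12 was measured on RFP-negative replicate 2 only, at −3.13.

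All 5 receptors were measured on all 4 arrays. Fgfr1, the receptor that mesoderm needs at gastrulation, read 5.88 and 5.88 on the RFP-negative and 5.90 and 5.75 on the RFP-positive arrays. The difference of −0.059 (SE 0.23) had a 95% interval from −0.65 to 0.53. Fgfr3, a receptor best known from cartilage and the nervous system, was likewise close at −0.44, −0.38, −0.55 and −0.22 in the same order of arrays, with an interval from −0.62 to 0.67. Both intervals lie inside 2-fold, but they are those of the brightest probe, and other probes of both genes had intervals that pass 2-fold on the higher side, reaching 1.34 and 1.01 for Fgfr1 and 1.17 for Fgfr3. Fgfr2, the receptor for Fgf7 and Fgf10 in epithelium, was at −0.51 and −0.94 against −0.73 and 0.55. Only RFP-positive replicate 2 lay outside the range of the RFP-negative arrays. The difference of 0.63 (SE 0.49) was −0.0095 without it and 1.27 without RFP-positive replicate 1. Fgfrl1, a receptor without a kinase domain, read 2.91 and 3.61 against 3.26 and 2.82, a difference of −0.22 (SE 0.35). Among the receptors, Fgfr4 alone had fractions that did not overlap.

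Frs2, the docking protein between receptor and RAS, had close signals on 3 arrays, 0.88, 0.97 and 0.86, and 2.01 on RFP-positive replicate 2. Its difference of 0.52 (SE 0.43) was −0.060 without that array.

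**Figure D2:**
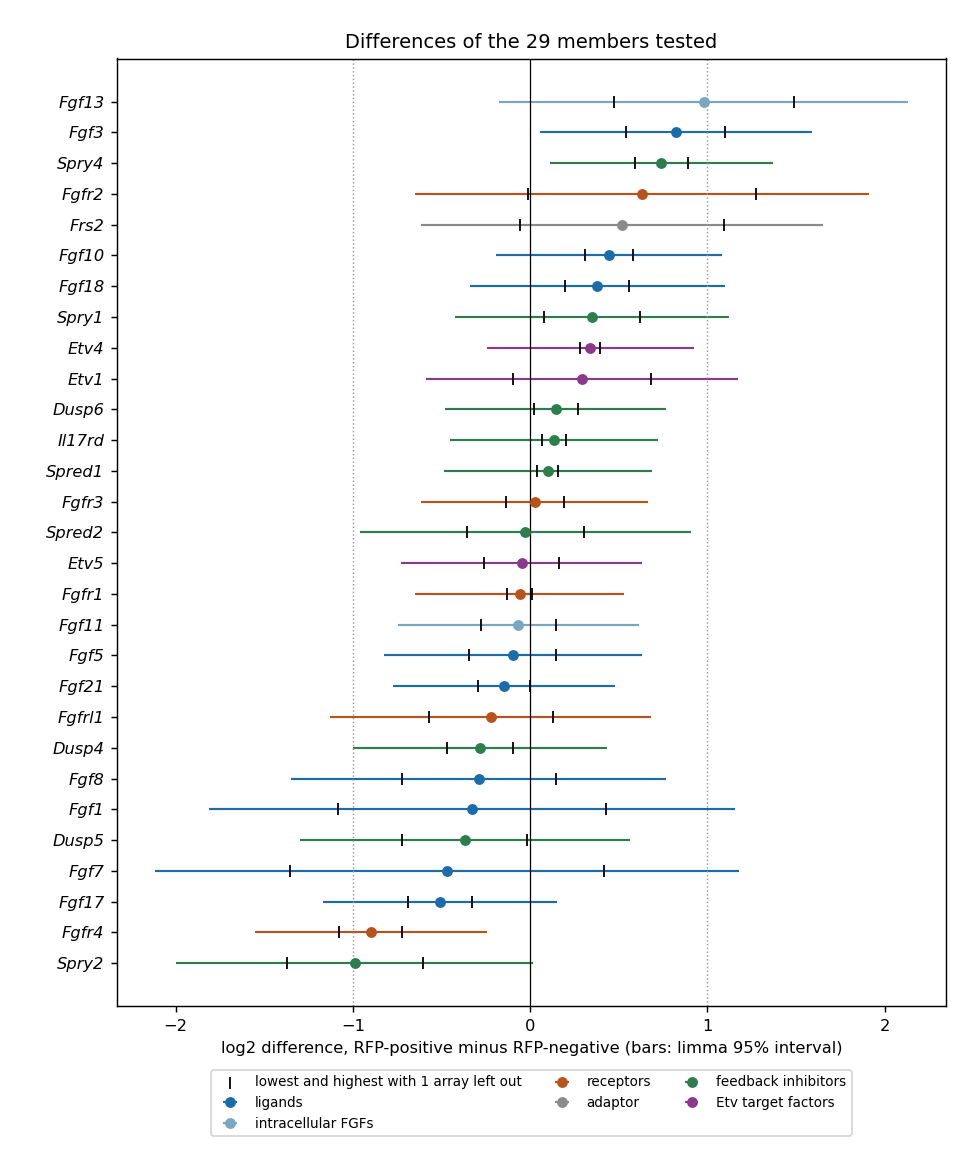
Log2 difference, RFP-positive minus RFP-negative, of the 29 tested members, sorted by size and coloured by role. Bars are 95% intervals of the limma fit, vertical ticks the lowest and highest value with 1 array left out, and dotted lines mark 2-fold. The intervals of Fgf3, Spry4 and Fgfr4 exclude 0 before adjustment, and the ticks of Fgfr2, Frs2, Fgf1 and Fgf7 lie on both sides of 0.

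All 9 feedback inhibitors were measured on all 4 arrays. Dusp6, the cytoplasmic ERK phosphatase that is a standard readout of FGF activity, read 5.01 and 4.88 in the RFP-negative and 5.21 and 4.96 in the RFP-positive fraction. These overlapped, and the difference of 0.14 (SE 0.24) had a 95% interval from −0.48 to 0.77. Il17rd, a transmembrane inhibitor also called Sef, was at 4.54 and 4.57 against 4.76 and 4.62. It was higher on both RFP-positive arrays by a gap of only 0.050, with an interval from −0.45 to 0.72. Spred1, which brings neurofibromin to RAS, had a narrow range over all arrays, 0.73 and 0.69 against 0.75 and 0.87, and an interval from −0.49 to 0.69. Spred2 overlapped at 0.58 and −0.072 against −0.053 and 0.51, with a difference of −0.026 (SE 0.36). For these 4 inhibitors the interval lay inside 2-fold either way.

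The other inhibitors were spread more widely. Spry1 was at 0.061 and 0.60 in RFP-negative and 0.55 and 0.82 in RFP-positive cells, a difference of 0.35 (SE 0.30) with overlap. Dusp4, a nuclear phosphatase of ERK, read 2.06 and 1.69 against 1.42 and 1.76. Dusp5, a nuclear phosphatase specific to ERK, read −0.12 and −0.82 against −0.59 and −1.09. Both overlapped, at differences of −0.28 (SE 0.27) and −0.37 (SE 0.36). Of the 3 Sprouty genes, Spry4 was thus higher and Spry2 lower in the RFP-positive fraction without overlap, and Spry1 overlapped. The median difference of the 9 inhibitors was 0.099.

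Etv4 and Etv5 are direct targets of FGF signalling, and Etv1 belongs to the same subfamily. Etv4 was at 2.72 and 2.75 in RFP-negative and 3.02 and 3.14 in RFP-positive cells. The duplicates were tight and the fractions did not overlap, with a difference of 0.34 (SE 0.22, limma adjusted p 0.753) and an interval from −0.25 to 0.92. Etv5 overlapped, at 2.35 and 2.42 against 2.12 and 2.55, and its difference of −0.049 had an interval from −0.73 to 0.63. Etv1 read 0.98 and 1.76 against 1.63 and 1.70, with RFP-negative replicate 1 below the other 3 arrays. In all, 11 of the 29 members tested had a 95% interval inside 2-fold either way, beside 44.2% of all genes tested, which is 39.3% of the members and 47.5% of the genes measured on all 4 arrays. These were Fgf5, Fgf21, Fgf11, Fgfr1, Fgfr3, Spred1, Spred2, Dusp6, Il17rd, Etv4 and Etv5, each by its brightest probe. Of these, Fgfr1, Fgfr3 and Etv4 had other measured probes whose intervals pass 2-fold, that of Etv4 running from −1.71 to 0.063.

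11 members had more than 1 probe, and for 6 of them at least 2 probes were measured on both arrays of a fraction. A fit with every probe as a row, over 17638 probes with a gene name and chosen after these values had been seen, called 0 probes at an adjusted p of 0.05 and held 6.11% at an unadjusted p under 0.05, with 4 of 36 member probes among them. For 4 of the 6 genes the probes disagreed in sign. The brightest Fgf8 probe differed by −0.29 (SE 0.41). The next Fgf8 probe read −1.84 and −2.35 on RFP-negative and −1.18 and −0.65 on RFP-positive arrays, without overlap, a difference of 1.18 (SE 0.33, limma adjusted p 0.765 over all probes). For Etv4 the brightest probe was higher in the RFP-positive fraction, but its other probe was lower, at −1.96 and −1.33 against −2.23 and −2.70, a difference of −0.82 (SE 0.34). The less bright probe of Fgf18 differed by −0.13 (SE 0.24), where the brighter one had 0.38. The 3 probes of Fgfr1 differed by −0.059 (SE 0.23), 0.29 (SE 0.40) and 0.33 (SE 0.26). For Fgfr2 and Fgfr3 the probes had the same sign, and for Fgfr2 both were highest on RFP-positive replicate 2, where the other probe read −1.52 against −2.30, −3.11 and −3.10 elsewhere. Fgfr4 had 1 further probe, which was measured on no array. Which transcripts the probes detect was not analysed here.

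**Figure D3:**
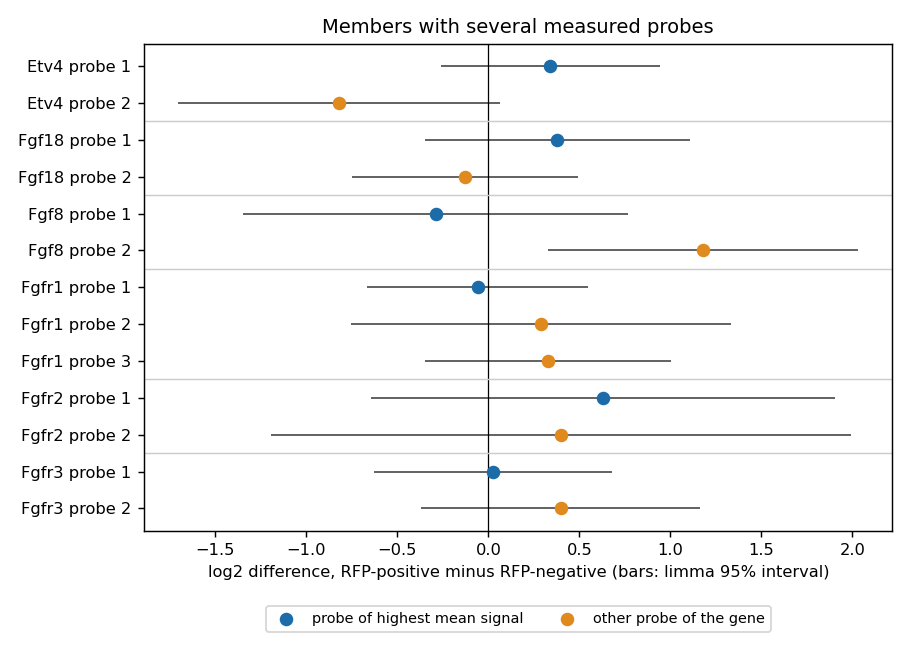
Log2 difference, RFP-positive minus RFP-negative, for each measured probe of the 6 members with several, from a limma fit over all named probes. Blue points are the probe of highest mean signal, orange points the others, and bars the 95% intervals. Fgf8 and Etv4 have probes on opposite sides of 0, with the Fgf8 interval of probe 2 above 0 before adjustment.

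Duplicates differed among themselves. Over the 28 members measured on all 4 arrays, the median absolute difference was 0.36 between the RFP-negative duplicates, 0.35 between the RFP-positive duplicates and 0.31 between the means of the fractions, against 0.24, 0.36 and 0.26 for all 12407 genes measured on all 4 arrays. The first pair of values compares single arrays and the last compares means of 2, so their sizes are not on one footing. RFP-positive replicate 2 was the array farthest from the median of the 4 for 14 of the 28 members (50%), beside 48.6% of those genes. RFP-negative replicate 1 was farthest for 7 members, replicate 2 for 4 and RFP-positive replicate 1 for 3, beside 16.8%, 20.7% and 13.9%. Both RFP-positive arrays lay on the same side of the RFP-negative mean for 19 of the 28 members (67.9%), beside 63.1%. Of the 29 tested members, 16 kept the sign of their difference with each array left out in turn, as those without overlap must. Under the other scalings 25 kept it, and the small differences of Etv5, Fgf11, Fgfr1 and Spred2 turned positive with median scaling. No share of all genes stands beside these counts of kept signs, so they are not read as results about the members.

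**Figure D4:**
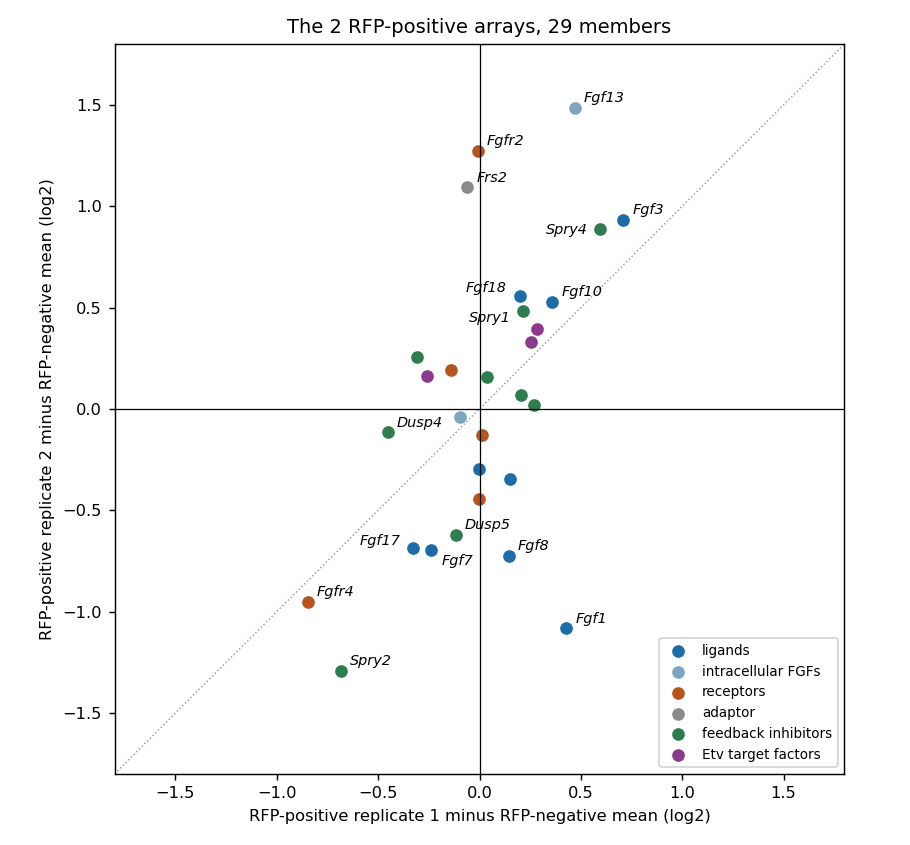
Log2 signal of the 29 tested members on RFP-positive replicate 1 (x axis) and replicate 2 (y axis), each minus the mean of the RFP-negative arrays, which both axes share. Colours give the role and the dotted line marks equal values. Fgf3, Spry4, Fgfr4 and Spry2 depart in the same direction on both arrays, while Fgfr2, Frs2 and Fgf1 depart mainly on replicate 2.

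The rest of the pathway was read from lists of other components. Of all genes measured on all 4 arrays, 19% were higher and 20.4% lower without overlap. At a limma unadjusted p under 0.05 stood 6.49% of all genes tested. For the 26 RAS-ERK cascade genes, all measured on all 4 arrays, the median difference was 0.10, with 8 higher and 6 lower without overlap. Those of smallest p were the RAS exchange factors Sos2 and Sos1, the RAS-inactivating neurofibromin gene Nf1 and the ERK-activated kinase gene Rps6ka3. Sos2 read −0.72 and −0.62 against −0.15 and 0.60, a difference of 0.89 (SE 0.33), and the others differed by 0.77, 0.73 and 0.54. For Nf1 the gap was only 0.00046, with 2.20 on RFP-positive replicate 2 against 1.39 on replicate 1. The 6 lower genes, named after their values were seen, were Hras, Frs3, Braf, Mapk3, Map2k1 and Nras. They differed by −0.40, −0.39, −0.31, −0.30, −0.25 and −0.10. In this list 1 gene, Sos2, had an unadjusted p under 0.05.

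Heparan sulphate genes, which build and edit the chains that FGF ligands need, had a median difference of −0.053 over the 21 of 23 genes measured on all 4 arrays. Of these, 5 were higher and 4 lower without overlap, beside 19% and 20.4% of all genes measured on all 4 arrays. The higher ones were the core protein genes Gpc6, Gpc4 and Hspg2, at 0.62, 0.47 and 0.92, the sulphatase gene Sulf1 at 0.38 and the sulphotransferase gene Hs6st2 at 0.19, named after their values were seen. Hs3st3b1, a sulphotransferase gene, was measured on both RFP-negative arrays, at −3.90 and −3.14, and on neither RFP-positive array. It thus passed the filter through the RFP-negative arrays alone. The dimmest measured probes of RFP-positive replicates 1 and 2 read −3.98 and −4.54. With these in place of its own RFP-positive signals, the RFP-negative level was 1.67-fold higher. That is not a lower bound, because some probes that were not measured read higher. Hpse of the same list was at −3.60 on RFP-positive replicate 1, and the epithelial marker Cdh1 at −4.40 on replicate 2. The limma adjusted p of Hs3st3b1 from the signals themselves was 0.519. The chain-building genes Ext1 and Extl3, the sulphotransferase gene Ndst2 and the core protein gene Sdc1 were lower without overlap. Their differences were −1.11, −0.86, −0.65 and −0.24, none with an unadjusted p under 0.05. Ext2 and Ndst1, relatives of Ext1 and Ndst2, overlapped, at −0.14 and 0.11. The other core protein genes overlapped too, Sdc2, Sdc3 and Sdc4 at −0.46, −0.18 and −0.52 and Gpc1 and Gpc3 at 0.24 and 0.049. Of the co-receptors and binding proteins, 7 of 10 were tested and 0 had an unadjusted p under 0.05. Their genes of smallest p were Flrt2 at −0.42, Fgfbp3 at 0.83, Cdh2 at 0.26 and Fibp at −0.22, and the endocrine FGF co-receptor genes Kl, on no array, and Klb, on RFP-positive replicate 2 alone, were not tested, nor was Flrt1, on no array. Among ligands outside the 36 genes, Fgf23 was measured on all 4 arrays with a difference of −0.093, Fgf14 and Fgf22 on 1 array of each fraction, and Fgf6 on none.

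Other ERK feedback and ERK-induced genes gave a median of −0.034 over the 20 of 23 genes measured on all 4 arrays. Of these, 2 were higher and 4 lower without overlap, beside 19% and 20.4% of all genes measured on all 4 arrays. Plaur, the urokinase receptor gene, was lower at −1.72 and −2.07 against −1.04 and −1.17, a difference of −0.79 (SE 0.25) and the 1 gene of the list with an unadjusted p under 0.05. The immediate early genes Fos and Ier2 differed in opposite directions, by 0.70 and −0.89, and Rasgrp3 by 0.42. Over the 5 lists 0 genes passed the adjusted threshold.

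Markers of other cell types that such a sort could hold were read beside the FGF genes. For every marker list, the shares to set beside its counts without overlap are 19% higher and 20.4% lower of all genes measured on all 4 arrays. The 10 adipocyte genes had a median of −1.60, with 9 lower without overlap, and their summed signal, in multiples of the 75th percentile, was 50.8 and 62.1 on RFP-negative and 21.5 and 16.1 on RFP-positive arrays. Cidec, Cfd and Pparg differed by −2.54, −1.81 and −1.41. Of 18 markers of OP9 stroma and fibroblasts, 15 were measured on all 4 arrays, with a median of −0.68 and 10 lower and 1 higher without overlap, and the summed signal was 90.1 and 133.7 against 77.9 and 67.7. Col1a1, Vcam1 and Thy1 differed by −0.85, −1.50 and −0.89, while the stromal markers Dcn and Postn were measured on no array. Col5a1, the 1 higher without overlap, and Fbln2, with overlap, had values of the other sign, 0.45 and 0.30. Endoderm and epithelium, where Fgfr4 is known to be expressed, had 8 of 12 markers measured on all 4 arrays, with a median of −0.70, 4 lower and 0 higher without overlap, and sums of 28.7 and 49.3 against 26.9 and 24.2. Rbp4, Epcam and Cldn6 differed by −2.01, −1.55 and −1.52. The endoderm factor genes of the same list overlapped with values of the other sign, Sox17 at 0.36, Foxa1 at 0.35 and Foxa2 at 0.14. Sox17 is also counted in the endothelial list, by the same probe. Afp and Apoa1 were measured on no array. The part of any of these in the Fgfr4 and Spry2 values was not tested.

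Markers of endothelium had a median of 0.18 over 10 genes, with 4 higher and 0 lower without overlap and sums of 82.8 and 78.6 against 90.7 and 104.9. Sox7, Tek and Cdh5 differed by 0.83, 0.40 and 0.53, and Emcn, Tie1 and Robo4 had values of the other sign, −0.24, −0.13 and −0.063, with overlap. Blood markers had a median of 0.16 over the 5 of 10 genes measured on all 4 arrays, with 2 higher and 1 lower without overlap and sums of 11.8 and 8.93 against 12.96 and 11.6. Most of the blood sum was Cd34, at 3.41 and 2.92 against 3.46 and 3.18, with overlap. Gata1, Myb and Spi1 differed by 1.44, 1.29 and −1.11, where Myb passed the filter through the RFP-positive arrays alone, and Lyz2, Gfi1b and Hba-x were measured on no array. Cardiac mesoderm markers had a median of 0.017 over the 9 of 10 genes measured on all 4 arrays, with 2 higher and 0 lower without overlap and sums of 24.5 and 18.1 against 22.7 and 33.6, and Tbx5, Tnnt2 and Myl4 differed by 1.28, 0.65 and 0.88, Tbx5 again passing through the RFP-positive arrays alone. Myl7, Nkx2-5, Gata4 and Smarcd3 had values of the other sign, −0.94, −0.38, −0.17 and −0.13, with overlap. On RFP-positive replicate 2 most of the cardiac sum was Myl4, at 4.40 against 3.45 on replicate 1. Pluripotency markers had a median of −0.40 over 6 of 8 genes tested and sums of 590.5 and 490.1 against 507.3 and 409.3, with 2 lower and 0 higher without overlap, and with Dppa4 at −0.49, Pou5f1 at −1.05 and Nanog at −0.24. Nearly all of that sum was the Nanog probe, at 9.18 and 8.92 against 8.96 and 8.66, and Zfp42 was measured on no array. For Pou5f1 the gap between the fractions was only −0.049, with −1.58 on RFP-positive replicate 2 against 0.24 on replicate 1.

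**Figure D5:**
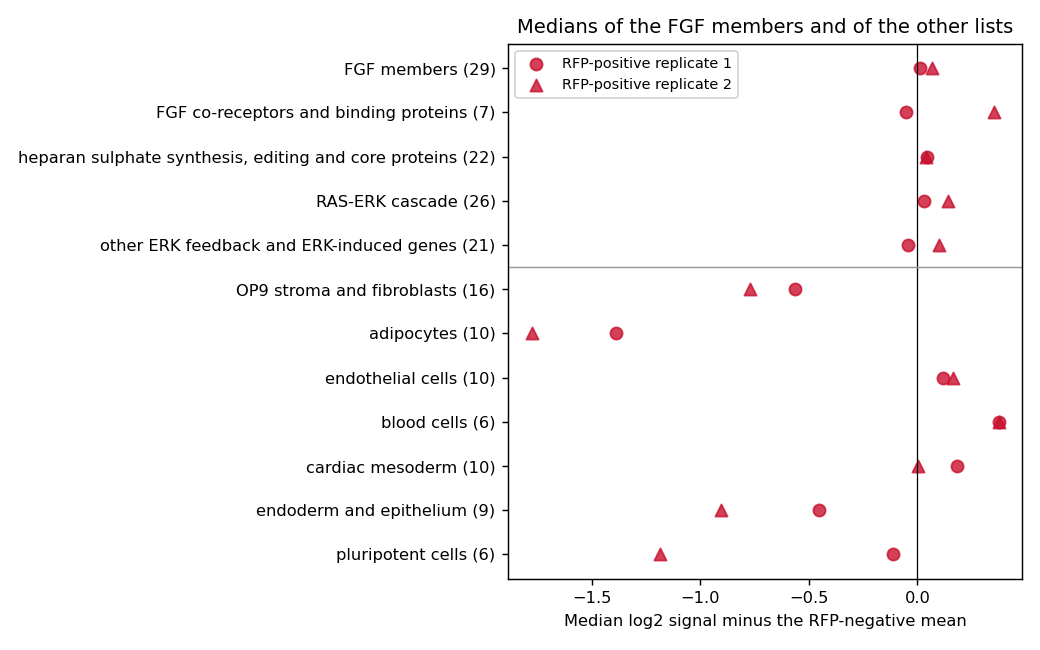
Median log2 signal of each list on RFP-positive replicate 1 (circles) and replicate 2 (triangles), minus the mean of the RFP-negative arrays, with the number of genes tested in brackets, those that passed the filter through 1 fraction included. FGF members and the other pathway lists are above the grey line and cell type markers below it. The FGF members lie near 0 on both arrays, and the adipocyte, stromal and endoderm markers lie left of it on both.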

How the data were processed

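Total RNA of 4 samples was measured on 1-colour Agilent arrays, 2 per fraction, grouped by reporter status in the labels. Per the file headers, the deposited intensity values are the processed signals of version 10.10.1.1 of the Agilent Feature Extraction program. The arrays shared 1 slide and 1 scan. The deposited value table holds the same intensity signals times 1 constant per array, on a linear scale and not centred, and the sources used here do not say how those constants were set.

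Control spots and outlier spots (115 to 153 per array) were left out. Signals were divided by their array's 75th percentile and put on the log2 scale, and spots of a probe were averaged. Of 55681 probes, 27235 had 1 gene symbol through RefSeq accessions (GRCm38 table), 0 had several and 28446 had none. The probe of highest mean stood for a gene. Genes whose probe was well above background on both arrays of a fraction entered a limma fit (version 3.58.1, R version 4.3.3) with 2 residual and 2.77 prior degrees of freedom, tested two-sided with Benjamini-Hochberg adjustment. The steps were tested on simulated data. Every member was named. Up to 4 genes of smallest p were named per pathway list and 3 per marker list. The members and lists were chosen with earlier results of these data known. The alternatives were other scalings, normexp background correction of the median spot signals, filters, variance models and probe rules, a replicate block, and each array left out. The other software was pandas 2.3.3 and matplotlib 3.10.9 under Python 3.11.15.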

Additional observations from a re-analysis of the deposited data

How the results depend on the processing

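With 2 arrays a fraction, precision was limited by their number, and 0 members passed an adjusted p of 0.05 under any alternative run. The median difference over all 29 tested members was −0.026, and 0.099 with the mean of all probes, 0.058 with median scaling, −0.082 with no filter on dim probes and 0.016 with quantile normalization, and ran from −0.0049 to 0.080 with 1 array left out. Counting Fgf3, 8 tested members were higher without overlap, with 11 to 13 when 1 array was left out, and 3 were lower, with 7 unfiltered, 5 with normexp and 7 to 10 with an array left out. Members 2-fold apart numbered 1 lower unfiltered, and 0 to 3 higher and 0 to 2 lower with an array left out. Members higher at an unadjusted p under 0.05 numbered 0 with an eBayes trend, with trend and robust, unfiltered and with normexp, 1 among genes measured on all 4 arrays, and 0 to 4 with an array left out. Members lower numbered 0 with the mean of probes, 2 among genes measured on all 4 arrays, unfiltered and with normexp, and 1 to 3 with an array left out. The gene was Fgfr4 as reported, Spry2 in its place with trend and with trend and robust, and Fgf21 and Spry2 with normexp. Other pathway genes at that p numbered 5 with trend, 5 with trend and robust, 8 with normexp and 2 to 13 with an array left out, the highest without RFP-positive replicate 1. Where 1 array is left out, 1 array stands against 2, and fractions then fail to overlap more readily for any gene. No share of all genes stands beside the counts of this paragraph, so they are not read as results about the members. The causes of these changes were not tested.

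With the replicate number as a block, 2 members were lower at an unadjusted p under 0.05 and 5 other pathway genes passed it. The same-numbered arrays' deviations correlated at 0.092, and nothing in the labels ties them to a shared source. The slide as a block was not run because all arrays lay on 1 slide.

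Signs reversed for Etv4 with the mean of probes (−0.24) and its other probe (−0.82), for Fgf8 with the mean of probes (0.32) and its next probe (1.18), and for Fgf18 with its other probe (−0.13). For Fgfr1 they reversed with its other probes (0.29 and 0.33), the mean of probes (0.19), median scaling (0.025), normexp (0.0034) and quantile normalization (0.089). Median scaling reversed Etv5 (0.035), Fgf11 (0.018) and Spred2 (0.058). The fit of single probes was chosen after seeing the data. With 1 array left out, differences ran from −0.099 to 0.68 for Etv1, −0.26 to 0.16 for Etv5, −1.08 to 0.43 for Fgf1, −0.28 to 0.15 for Fgf11, −0.34 to 0.15 for Fgf5, −1.36 to 0.42 for Fgf7 and −0.73 to 0.14 for Fgf8. They ran from −0.13 to 0.013 for Fgfr1, −0.0095 to 1.27 for Fgfr2, −0.14 to 0.19 for Fgfr3, −0.57 to 0.13 for Fgfrl1, −0.060 to 1.09 for Frs2 and −0.35 to 0.30 for Spred2.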
